A study of Mus musculus with 6 samples.

Results

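Fatty acid synthesis, elongation and desaturation were followed through 10 genes, selected by symbol among the 16472 genes of the authors' deposited table. All 10 were listed and had an adjusted p. They are Acly, Acaca, Fasn, Scd1, Scd2, Fads1, Fads2, Fads3, Elovl5 and Elovl6. HT22, a single immortalised mouse line from the hippocampus, was exposed to AA147 at a dose the labels give as 10 mM (the unit could not be checked from the files and may be a slip for a micromolar dose), or to the solvent DMSO as vehicle, for 16 h. AA147 is a compound described as switching on the stress regulators ATF6 and NRF2. Each group had 3 mRNA libraries, 6 in all, and nothing in the labels says whether these came from separate cultures, so the p-values measure only the spread between these libraries. The table gives 1 line per gene. Single libraries were not analysed here, and the error of each value is the authors' standard error (SE).

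In cells that make their own lipids, ATP citrate lyase (Acly) splits citrate into acetyl-CoA, acetyl-CoA carboxylase (Acaca) turns that into malonyl-CoA, and fatty acid synthase (Fasn) builds palmitate from both. Elongases add carbon units to the chain, stearoyl-CoA desaturases (Scd1, Scd2) make monounsaturated acids, and Fads1 and Fads2 act on polyunsaturated acids. Many of these genes are targets of SREBP transcription factors, which also drive sterol synthesis, and of the liver X receptors (LXR), and in the brain Scd2 is known as a main stearoyl-CoA desaturase.

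The fold changes are read here as AA147 over vehicle. The header does not name the numerator, and every direction below depends on that reading. Of the 10 genes in the authors' deposited table, 5 had a negative fold change with an adjusted p under 0.05 (called below), 0 were called positive and 5 were not called. The called genes were Acly, Scd1, Scd2, Elovl5 and Elovl6, and they lay between -0.35 and -0.18 on the log2 scale. The 3 Fads genes lay between 0.03 and 0.06 and Fasn at -0.0022, none of them called. Acaca, at -0.30, lay within the range of the called genes but was not called. Over the 13597 genes for which the authors' deposited table has an adjusted p, 11.1% were called negative, 9.05% positive and 20.2% in either direction. Among the 7018 genes with a mean between the lowest and the highest of these 10, 14.7% were called negative and 27.1% in either direction. The median of the 10 fatty acid genes on the log2 scale was -0.20, beside 0.01 for all genes with an adjusted p. At the stricter limit of an adjusted p under 0.01 only Scd1 stayed called, so the other 4 calls are close to the threshold. Over all 13597 genes with an adjusted p, 1818 were called at that limit.

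**Figure D1:**
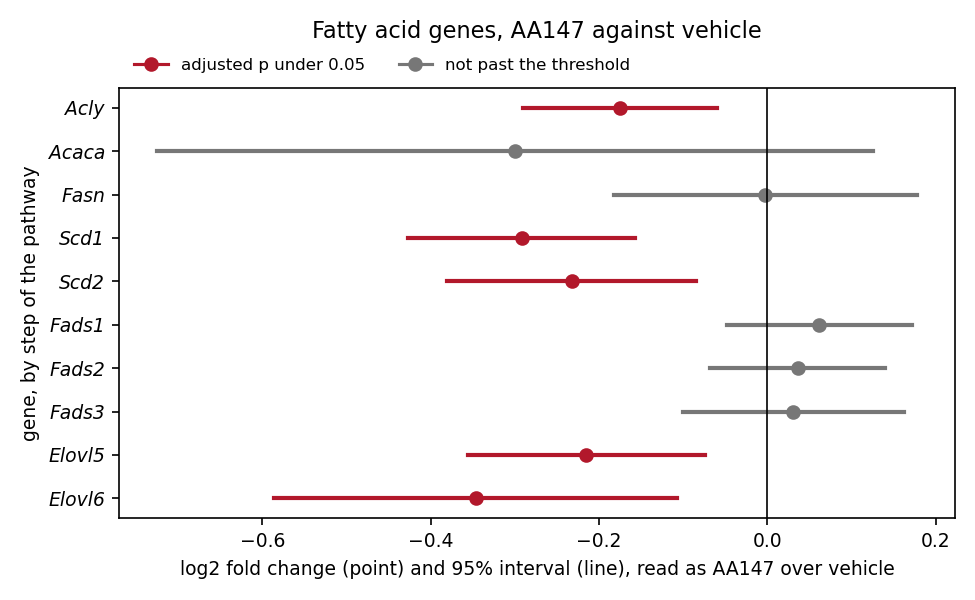
Log2 fold change of the 10 genes, read as AA147 over vehicle (horizontal axis), by gene in the order of the pathway (vertical axis). Points are the fold changes in the authors' deposited table, lines the 95% intervals computed from the authors' SE, and red marks an adjusted p under 0.05: the 5 red genes lie between -0.35 and -0.18, while the intervals of Fasn, Acaca and the 3 Fads genes include 0.

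The first gene of the pathway was lower with AA147 by a small amount. Acly, which supplies acetyl-CoA in the cytosol, had a log2 fold change of -0.18 in the authors' deposited table (SE 0.059 and adjusted p 0.019). That is a change of -11.4%, with a 95% interval from -18.2% to -4.05%, computed from the SE under a normal approximation. Its mean over the libraries was 25443 normalized counts (counts scaled by the authors to an average library), rank 111 of all genes. Taking the fold change at face value with equal groups, this mean implies 26986 with vehicle and 23900 with AA147. The Acly call ended when a trend of the fold changes on transcript length, GC content and expression was subtracted, which left -0.12 (adjusted p 0.143).

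The promoter of Acly is shown because it is the called gene whose bases before the start lie outside annotated exons. Sequences are from RefSeq on GRCm38.p6, which had an entry for 7 of the 10 genes, and not for Scd1, Scd2 or Fads1. The Acaca entry starts 65803 bases inside the gene and so says nothing about the bases at its 5′ end, and it is left out of the counts of motifs, which cover the other 6. Those of Fads3 and Fasn start 693 and 619 bases inside the longest extent of the gene, and the remaining 4 at its end. The window is chr11:100528001-100528150 on the minus strand, the 150 bases before the listed start, and capitals mark the GC box GGGCGG or its reverse complement.
Acly: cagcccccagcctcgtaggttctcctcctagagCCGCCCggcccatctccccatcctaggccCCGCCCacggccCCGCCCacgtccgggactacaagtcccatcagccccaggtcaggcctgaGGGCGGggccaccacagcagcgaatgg

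This window holds 4 GC boxes, 3 of them on the opposite strand. A GC box occurs on either strand in the 250 bases before the start in 32.7% of the 32851 RefSeq promoters. It was matched in 3 of the 6 promoters here, those of Acly, Fads2 and Fads3.

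Malonyl-CoA and palmitate synthesis showed no call in either gene, one with a fold change near 0 and the other with a wide interval. Fasn, the multifunctional enzyme that assembles palmitate, was the most abundant of the 10 by counts, with a mean of 37937 normalized counts and rank 59. Its log2 fold change was -0.0022 in the authors' deposited table (SE 0.092 and adjusted p 0.992). The 95% interval of the Fasn change runs from -11.9% to 13.1%, so a change as large as that of Acly was not excluded by it. Acaca, which makes malonyl-CoA, had a log2 fold change of -0.30 in the authors' deposited table (SE 0.217 and adjusted p 0.372). Its interval, from -39.5% to 9.12%, holds both no change and a change larger than that of any called gene here. The point estimate of Acaca was close to that of Scd1 at -0.29, but its SE was the largest of the 10.

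The SEs of most of these genes lay near those of genes with a like mean, and the exceptions were the longest transcripts. The SE of Acaca was 2.67 times and that of Fasn 1.57 times the median SE of about 200 genes with the nearest means. Scd2 followed at 1.29 and Elovl6 at 1.18, and the other 6 lay between 0.89 and 1.03. Canonical GENCODE transcripts of Acaca and Fasn are 9513 and 10789 bases long, both in the longest of 10 length classes, where 13.9% of genes had a ratio of at least 1.5. No other length class had more than 1.48% such genes. The part of transcript length in the missing call of Acaca was not tested.

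**Figure D2:**
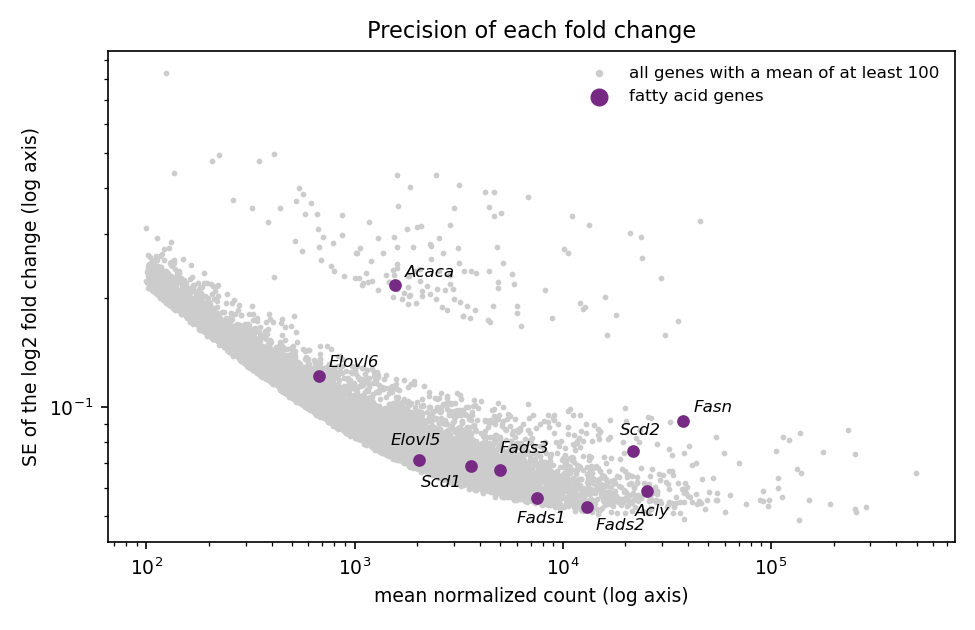
SE of the log2 fold change (vertical axis, log scale) against the mean normalized count (horizontal axis, log scale) in the authors' deposited table, for all genes with a mean of at least 100 (grey) and the 10 fatty acid genes (purple). Acaca, at an SE of 0.217, and Fasn, at 0.092, lie above the band of genes with a like mean.

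Promoter bases of Fasn, Fads3 and Elovl5 are shown together because these are the 3 promoters of the 6 with CCAAT boxes, the site of the factor NF-Y, and their genes had different outcomes. Capitals mark CCAAT or its reverse complement ATTGG and, in Fads3, a GC box. The Fasn stretch is chr11:120824577-120824697 on the minus strand and that of Fads3 is chr19:10041398-10041467 on the plus strand. The Elovl5 bases at chr9:77917282-77917311 and chr9:77917335-77917364, plus strand, lie in an exon of another annotated transcript and are limited to 30 bases each.
Fasn: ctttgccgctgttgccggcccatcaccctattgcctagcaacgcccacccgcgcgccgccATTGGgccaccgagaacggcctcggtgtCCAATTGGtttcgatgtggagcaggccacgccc
Fads3: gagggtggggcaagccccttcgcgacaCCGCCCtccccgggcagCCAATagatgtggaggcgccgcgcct
Elovl5, first match: tatcgccccaggATTGGttccaaggccgca
Elovl5, second match: cctccgggctcggATTGGctggccgcgcca

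Fasn has 3 matches on both strands, 2 of which overlap in CCAATTGG, and they begin 90, 62 and 59 bases before the start. Elovl5 has matches 71 and 17 bases before the start and Fads3 has 2, at 106 and 78, the second of which lies past the end of the printed stretch. CCAAT on either strand is found in 33.8% of all RefSeq promoters over the same 250 bases. The sterol regulatory element searched as TCACNCCAC, found in 1.05% of all promoters, had 0 matches in the 6, which says only that these letters are not in these windows. The E-box CACGTG, found in 6.02%, was matched once, in Elovl5, and the antioxidant response core TGACNNNGC, found in 10.2%, once, in Fads3. Elovl6 had no match to any of the 5 motifs, so none could be shared by all of the called genes Acly, Elovl5 and Elovl6. Acly and Elovl5 had no motif in common either. The 150 bases before the start of Elovl5, Elovl6 and Fads2 lie wholly in annotated exons.

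Both stearoyl-CoA desaturases, which put the first double bond into saturated acids, were lower with AA147. Scd1 had a mean of 3612 normalized counts and a log2 fold change of -0.29 in the authors' deposited table (SE 0.069 and adjusted p 0.000313). This is a change of -18.3%, with an interval from -25.6% to -10.3%, and it has the smallest adjusted p of the 10. Scd2, with a mean of 21697 normalized counts, had a log2 fold change of -0.23 in the authors' deposited table (SE 0.076 and adjusted p 0.0143), a change of -14.9% with an interval from -23.2% to -5.69%. The intervals of Scd1 and Scd2 overlap widely.

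The 4 Scd genes lie in a cluster on one chromosome and are close in sequence, which touches their single values. The coding sequences of Scd1 and Scd2 were 90.7% identical over 1064 aligned bases, and those of Scd1 and Scd3 91.5%. Of all runs of 50 bases in the Scd1 transcript, 2.91% also occur in that of Scd2. Reads from those stretches could be counted for either gene, and how the authors treated them is not given in the sources used here. Scd3 and Scd4, which are not among the 10, had lower means of 313 and 176 normalized counts in the authors' deposited table. Their log2 fold changes were -0.22 (SE 0.142, adjusted p 0.295) and -0.19 in the authors' deposited table (SE 0.183 and adjusted p 0.539), not called.

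None of the Fads genes was called, and their fold changes lay close together just above 0. Fads1 encodes the delta-5 desaturase, Fads2 the delta-6 desaturase, and Fads3 a related enzyme known to act on sphingoid bases. In the authors' deposited table Fads1 had a log2 fold change of 0.06 (SE 0.056, adjusted p 0.50). Fads2 lay at 0.04 (SE 0.053, adjusted p 0.714) and Fads3 at 0.03 in the authors' deposited table (SE 0.067 and adjusted p 0.812). Their means were 7559, 13055 and 4975 normalized counts, and the SE of Fads2 was the smallest of the 10. The 95% intervals were -3.27% to 12.7% for Fads1, -4.63% to 10.2% for Fads2 and -6.74% to 11.9% for Fads3. A decrease as large as the point estimate of Acly, -11.4%, is outside all 3 intervals. The Fads genes also lie in a cluster on one chromosome, but they are more distant in sequence than the Scd genes: coding identity was 72.8% between Fads2 and Fads3 and 69.4% between Fads1 and Fads2, and at most 0.157% of runs of 50 bases were shared. The interval of Scd1 on the log2 scale, from -0.43 to -0.16, does not overlap those of Fads1, Fads2 or Fads3, whose lowest bound is -0.10. That of Scd2, from -0.38 to -0.08, overlaps the interval of Fads3 but not those of Fads1 or Fads2. The difference between the Scd and the Fads genes was itself not tested, since the genes come from the same libraries and their covariance is unknown.

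Both elongases were lower with AA147. Elovl5, which extends polyunsaturated chains, had a mean of 2051 normalized counts and a log2 fold change of -0.21 in the authors' deposited table (SE 0.072 and adjusted p 0.0178). The Elovl5 change was -13.8%, with an interval from -21.8% to -5.03%. Elovl6, which extends palmitate to stearate, had the lowest mean of the 10, at 672, and the largest called change, with a log2 fold change of -0.35 in the authors' deposited table (SE 0.122 and adjusted p 0.0271). The Elovl6 change was -21.3% with a wide interval, from -33.4% to -7.14%, which contains the point estimates of the other 4 called genes.

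Per kilobase of canonical transcript, which allows levels to be set side by side between genes, the 10 genes spanned a wide range. Acly was highest, at 5769 normalized counts per kilobase over all libraries, followed by Fads2 at 4026, Scd2 at 3977 and Fasn at 3516. Fads1 and Fads3 lay at 2131 and 1313. Scd1 at 719 and Elovl5 at 693 were close together, and Acaca at 164 and Elovl6 at 110 were lowest. Fasn, highest by counts, was thus below Acly, Fads2 and Scd2 once length was taken into account. Scd2 was above Scd1 on this scale, and both lay above Scd3 at 89.8 and Scd4 at 53.3. Each level rests on the choice of 1 transcript per gene and has no error of its own, so neighbours in this order cannot be told apart by a test.

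**Figure D3:**
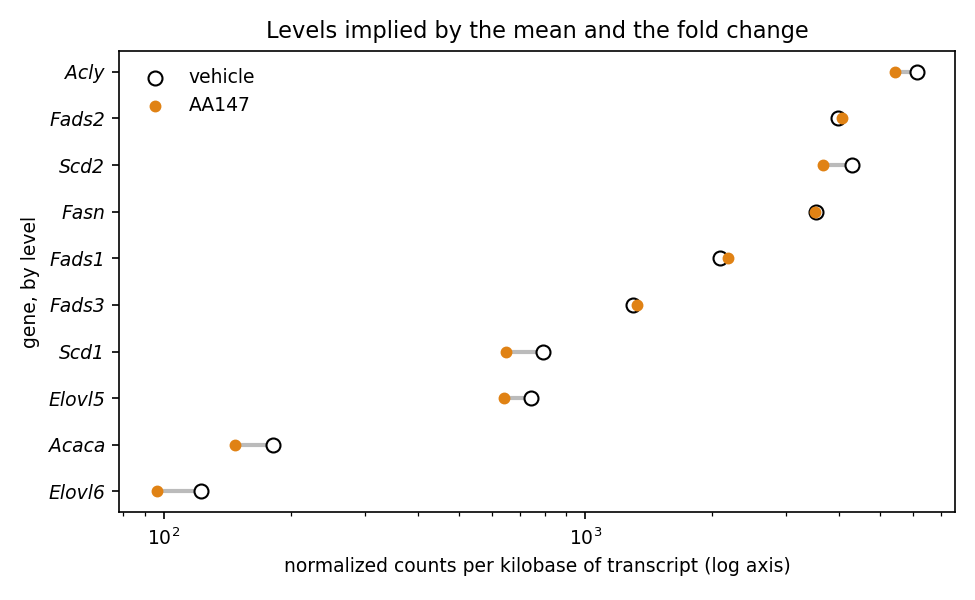
Levels with vehicle (open circles) and AA147 (orange points) in normalized counts per kilobase of transcript (horizontal axis, log scale), by gene in the order of the level (vertical axis), as implied by the mean and the fold change in the authors' deposited table. The gap between the groups is small beside the range between genes, from 110 for Elovl6 to 5769 for Acly over all libraries.

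The genes that feed carbon and NADPH into the pathway had changes in both directions. Those of Acss2, Idh1, G6pdx and Pgd were larger in size than that of any of the 10 genes. This difference was not tested. Of 6 genes in this list 2 were called negative, 3 positive and 1 was not called, with a median of 0.11. Of all tested genes 20.2% were called in either direction. Acss2, which makes acetyl-CoA from acetate, had a log2 fold change of -0.85 in the authors' deposited table (SE 0.086 and adjusted p 1.05e-20). Idh1, the cytosolic isocitrate dehydrogenase that yields NADPH, also lay at -0.85 in the authors' deposited table (SE 0.068 and adjusted p 1.6e-33). The pentose phosphate enzymes G6pdx and Pgd, which yield NADPH as well, were called at 0.61 and 0.59 in the authors' deposited table (adjusted p 1.15e-19 and 2.05e-20). Me1, malic enzyme, was called at 0.35 in the authors' deposited table (SE 0.09 and adjusted p 0.00116). G6pdx, Pgd and Me1 are textbook NRF2 targets, but the part of NRF2 in the changes of this list, in either direction, was not tested. Slc25a1, the carrier that exports citrate for Acly, lay at -0.13 in the authors' deposited table (SE 0.063 and adjusted p 0.147) and was not called.

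Among other elongation enzymes 1 of 7 tested was called, negative, beside 20.2% of all tested genes in either direction. The median of these enzymes was -0.11. The called gene was Tecr, the reductase of the last step of each elongation round, at -0.46 in the authors' deposited table (SE 0.076 and adjusted p 4.82e-08). Its level of 6906 normalized counts per kilobase was above that of every one of the 10 genes. The dehydratases Hacd1 to Hacd4, listed under older symbols, ranged from -0.22 for Hacd1 to 0.23 for Hacd4 in the authors' deposited table, none called, and Hacd2 was nearest to the threshold (adjusted p 0.0647). Elovl1, which acts on very long chains, lay at -0.11 in the authors' deposited table (SE 0.067 and adjusted p 0.265). Elovl2, Elovl3, Elovl4 and Elovl7 were not analysed here.

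Of 6 other desaturases and electron donors 1 was called negative and 1 positive, with a median of -0.11. The share called over all tested genes was 20.2% in either direction. Cyb5r3, the reductase that passes electrons to cytochrome b5, had a log2 fold change of -0.53 in the authors' deposited table (SE 0.060 and adjusted p 8.07e-17). Cyb5a, the cytochrome b5 that serves the desaturases, was called at 0.34 in the authors' deposited table (SE 0.088 and adjusted p 0.00126). Thus a pair of genes acting in the same electron chain lay on opposite sides of 0. Fads6 and Degs2 were not analysed here. Of the remaining synthesis enzymes 1 of 6 was called, beside the same 20.2% of all tested genes. Mecr, the last enzyme of mitochondrial fatty acid synthesis, lay at -0.45 in the authors' deposited table (SE 0.086 and adjusted p 3.02e-06). Acacb, the carboxylase linked to the control of fatty acid oxidation, had a mean of only 94.6 and lay at -0.56 in the authors' deposited table (SE 0.230 and adjusted p 0.0674). Hsd17b8 and Olah were not analysed here.

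Among regulators of the pathway 2 of 13 tested were called negative and 1 positive, with a median of -0.08. Over all tested genes 11.1% were called negative and 9.05% positive. Insig1, which holds SREBP in the endoplasmic reticulum and is itself an SREBP target, had a log2 fold change of -0.73 in the authors' deposited table (SE 0.069 and adjusted p 1.16e-23). Srebf2, which encodes the SREBP form tied mainly to sterol genes, lay at -0.46 in the authors' deposited table (SE 0.062 and adjusted p 5.23e-12). Srebf1, the form tied mainly to fatty acid genes, lay at -0.18 in the authors' deposited table (SE 0.076 and adjusted p 0.067) and was not called. Prkaa1, a catalytic subunit of the kinase AMPK, which inhibits acetyl-CoA carboxylase, was called at 0.31 in the authors' deposited table (SE 0.068 and adjusted p 9.8e-05). For the LXR gene Nr1h2 the authors' deposited table gives 0.03 (adjusted p 0.847), and Nr1h3, with a mean of 1.77, had no adjusted p. Mlxipl, Thrsp and Prkaa2 were not analysed here. Of the 3 LXR targets analysed outside synthesis only Lpcat3, which puts polyunsaturated chains into phospholipids, was called, at -0.30 in the authors' deposited table (SE 0.083 and adjusted p 0.00302). The authors' deposited table has Abca1 at -0.18 and Mylip at -0.14, neither called, and Abcg1 and Smpdl3a were not analysed here.

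All 19 sterol synthesis genes were called negative, with a median of -0.61 and a range from -0.88 to -0.25 in the authors' deposited table, beside 5 of 10 and -0.20 for the fatty acid genes. Over all tested genes 11.1% were called negative. The difference between the sterol and the fatty acid list was not tested.

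**Figure D4:**
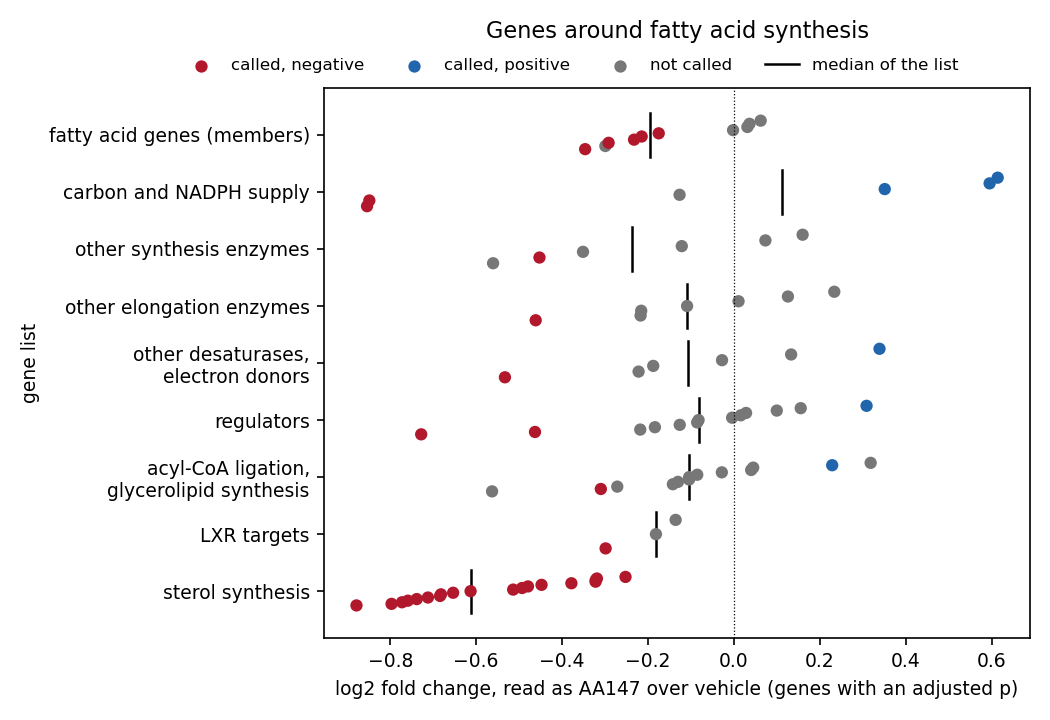
Log2 fold change in the authors' deposited table, read as AA147 over vehicle (horizontal axis), for each gene with an adjusted p in 9 lists (vertical axis). Red and blue mark genes called negative and positive, grey those not called, and the black line the median, which is -0.20 for the fatty acid genes, 0.11 for carbon and NADPH supply and -0.61 for sterol synthesis.

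The labelled cell type was checked against its markers. Of 8 neuronal markers 3 were analysed. In the authors' deposited table Tubb3 and Dlg4 had means of 1199 and 1653, and Eno2 one of 62.1. Map2, Rbfox3, Snap25, Syp and Nefl were not analysed here. Per kilobase Tubb3 reached 374 normalized counts, beside 23470 for Col1a1 and 69679 for Vim, which mark mesenchymal cells. Of 5 mesenchymal markers 3 were called negative, beside 11.1% of all tested genes. The called ones were the collagen genes, with Col1a1 at -1.52, Col3a1 at -1.11 and Col1a2 at -0.97 in the authors' deposited table. Fn1 and Vim were not called, with smaller log2 fold changes of -0.11 and -0.08. The 3 neuronal markers went both ways, with Tubb3 called at 0.43 (adjusted p 5.67e-05) and Dlg4 at -0.15 (adjusted p 0.164) and Eno2 at -0.30 (adjusted p 0.536) not called in the authors' deposited table. The part of these markers in the changes of the fatty acid genes was not tested, and fewer cells of a kind and less RNA per cell cannot be told apart in bulk samples. Of the adipocyte markers, Pparg and Fabp4 had means of 11.2 and 2.61 in the authors' deposited table, and Adipoq and Plin1 were not analysed here. Aldh1l1, of astrocytes, had a mean of 27.4, and Mbp, of oligodendrocytes, one of 2.00 in the authors' deposited table.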

How the data were processed

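mRNA of 6 HT22 libraries, 3 with AA147 and 3 with vehicle, was sequenced without strand information, per the labels' protocols. DESeq2 and the build mm9 are named in the submitters' processing notes. The aligner, counter, annotation and filters are not given in the sources used here. Per the file headers, the authors deposited these columns per gene: the mean normalized count, a signal averaged over the libraries, the log2 fold change and its SE, a score (the Wald statistic, equal to log2 fold change over SE within 3.06e-07), the p-value, and its adjusted form, which matched the method of Benjamini and Hochberg over 13597 genes within 7.6e-07. The other 2875 genes, all with a mean of at most 8.41, had none and stay without a call. The depth of each library is unknown, and the means sum to 30768012.

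No model was refitted. A gene was called at an adjusted p under 0.05. Intervals of 95% were computed from the SE. Genes were matched by symbol, or by an older symbol of RefSeq for GRCm38.p6 (4 genes). Lengths came from canonical transcripts of GENCODE M39, known for 86.3% of genes. Coding sequences were aligned with Biopython 1.88. Exons were checked by exact match of the printed bases to GRCm39. The trend was fitted with statsmodels 0.14.6 and p-values came from SciPy 1.17.1, under Python 3.11.15. The rules for calling genes were tested on simulated data, but the trend and the sequence comparisons were not.

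The members and lists were chosen with earlier results of these data known. Named genes were the 10 genes and genes of the related lists, any of which could be named. Coordinates are given only for the printed promoter bases, on GRCm38.p6, while the submitters' processing notes name mm9. Some genes of the marker lists are not reported here.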

Additional observations from a re-analysis of the deposited data

How the results depend on the processing

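No paired analysis was possible because values of single libraries were not analysed here, and leaving out each replicate was not run for that reason. Of the 10 genes, 5 were called as deposited. The count was 1 at an adjusted p under 0.01, and 0 with a Bonferroni adjustment, with a fold limit of 0.5 on the log2 scale, and when tested for a change beyond 0.25 (a null interval). It was 4 or 5 with the adjustment over all genes with a p, with centring on the median of genes with a mean of at least 100, over those genes alone, and after subtraction of the length, GC and expression trend over 10118 genes. Of all 13597 genes with an adjusted p, 2741 were called as deposited, 1818 at an adjusted p under 0.01 and 774 with a Bonferroni adjustment. The fold limit left 796 of them and the null interval 471. After subtraction of the trend 2353 of the 10118 genes were called. The trend ended the call of Acly and moved Fasn from -0.0022 to 0.086 (adjusted p 0.56), a change of sign within its SE. The cause was not tested. Centring and the trend gave 2 called genes among other elongation enzymes instead of 1. With a Bonferroni adjustment 1 of the desaturases and electron donors was called instead of 2, and 0 of the glycerolipid genes instead of 2 (1 at an adjusted p under 0.01) and 0 of the LXR targets instead of 1. With the fold limit of 0.5 the calls were 0 for other synthesis enzymes, other elongation enzymes, glycerolipid genes and LXR targets, 1 for desaturases and electron donors, 1 for regulators and 11 for sterol synthesis. With the null interval they were 0 for the same first 4 lists, 1 for desaturases and electron donors and 11 for sterol synthesis. These stricter limits call fewer genes by construction.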

Other observations

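Of 13 tested genes of acyl-CoA ligation and glycerolipid synthesis 1 was called negative and 1 positive, with a median log2 fold change of -0.10, where 20.2% of all tested genes were called in either direction. Acsl3, an acyl-CoA synthetase of the endoplasmic reticulum and lipid droplets, had a log2 fold change of -0.31 in the authors' deposited table (SE 0.073 and adjusted p 0.00029). Agpat1, which adds the second acyl chain to the glycerol backbone, was called at 0.23 in the authors' deposited table (SE 0.078 and adjusted p 0.0204). Acsl4, which activates arachidonic acid, lay at 0.04 in the authors' deposited table (SE 0.072 and adjusted p 0.741). Agpat2, with a mean of 4.64, had no adjusted p.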
